A study of Citrus maxima with 12 samples.

Results

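The interaction between cultivar and disease asks, gene by gene, whether yellow spot disease changed expression by the same factor in fruit of 2 pomelo cultivars. It was computed as the disease change in Jinlan minus the disease change in Jinsha, so a positive value means that disease raised a gene more, or lowered it less, in Jinlan. All 12 libraries of the series entered it, 3 each from diseased Jinlan, control Jinlan, diseased Jinsha and control Jinsha fruit of Citrus maxima. Of 32863 gene identifiers, 17120 reached 1 FPKM (fragments scaled to transcript length and library size) in at least 3 libraries and were tested.

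Plants answer infection by recognising molecules of the pathogen at the cell surface or inside the cell, which sets off signalling and broad shifts in transcription. Cultivars of one species can differ both in the level at which a gene stands in healthy tissue and in how far it moves in diseased tissue. An interaction measures the second of these, and its size is equally the cultivar difference in diseased fruit minus that in control fruit. The labels name the tissue as fruit without saying which part, give no organism as the cause of the disease and give no stage, so the cells compared may differ in type as well as in state, and fewer cells of a type cannot be told apart from less RNA per cell. They do not say whether libraries of a group came from separate fruits or trees. Each p-value therefore reflects only the scatter among libraries of a group, which may be technical. That scatter was pooled over the 4 groups into a single estimate per gene. Identifiers were not paired with gene names, so genes are described by identifier, level and pattern, and no function or pathway is given.

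Libraries of one group resembled each other more than those of different groups, with Pearson's r over the tested genes of 0.9916 to 0.9947 within and 0.9248 to 0.9636 between groups. Jinlan control replicate 3 and Jinlan disease replicate 3 lay closest to the other condition of their cultivar in several of the genes below, and counts without both are given where they differ by more than 1.5 times.

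The disease effect differed between the cultivars for more genes than not. By limma with Benjamini-Hochberg adjustment, 10042 of 17120 genes (58.7%) had an adjusted p below 0.05 for the interaction and are referred to as called. Most of these differences were small. Over all tested genes the median absolute interaction was 0.37 on the log2(FPKM + 1) scale, with quartiles of 0.17 and 0.692, against a median standard error of 0.117. For 12839 genes (75%) the 95% interval of the interaction lay wholly inside a 2-fold difference, and 6020 of these were nevertheless called. At the other end, the interval lay wholly beyond 2-fold for 1167 genes (6.82%), of which 793 had a positive and 374 a negative interaction.

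Called genes with an interaction of at least 2-fold numbered 2231 (13.0% of those tested), with 1517 positive, called higher (8.86%), and 714 negative, called lower (4.17%). Higher genes outnumbered lower ones at 4-fold too, by 246 to 137. At 16-fold the balance was the other way round, with 6 genes higher and 27 lower. The most extreme values were thus more often those of genes that disease raised more, or lowered less, in Jinsha, while moderate values were more often those of genes that disease raised more, or lowered less, in Jinlan. The plot of disease changes in both cultivars shows this as a long tail to the right at Jinsha changes above 4 log2 units and a dense cloud above the diagonal. With a pseudocount of 5 in place of 1 the 2-fold counts were 723 higher and 388 lower.

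**Figure D1:**
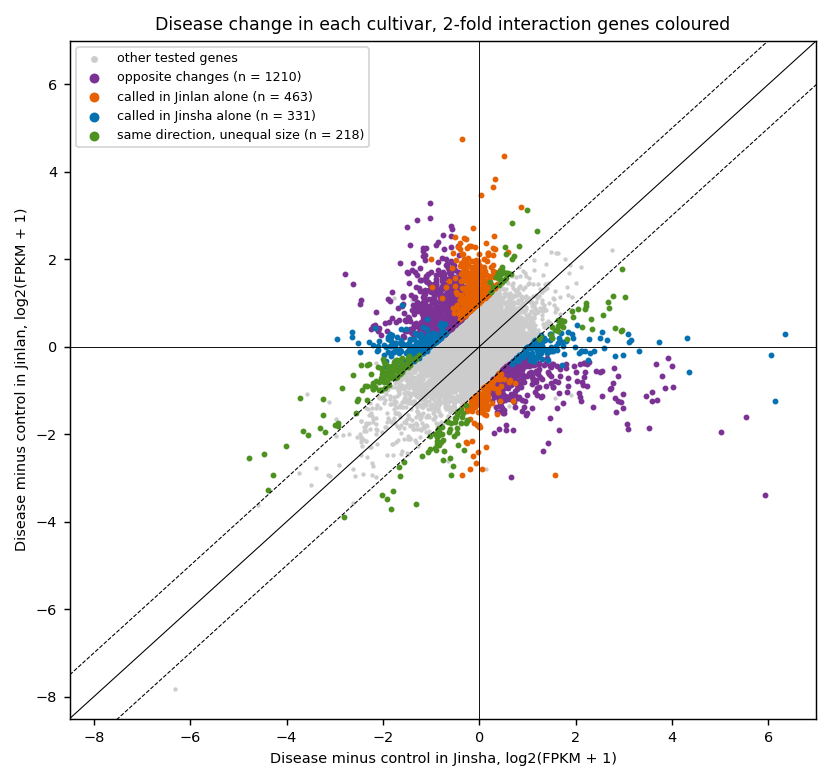
Disease minus control on the log2(FPKM + 1) scale in Jinlan (vertical axis) against the same in Jinsha (horizontal axis), 1 point per tested gene. The solid line marks equal change, the dashed lines a 2-fold interaction, and colours mark the 4 classes of called genes beyond it, of which opposite changes (1210 genes) are the most numerous.

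The 2231 genes were then divided by whether the disease contrast within each cultivar was itself called, from the same fit. These contrasts are the 2 terms of the interaction, so the division describes its shape and is no further test. In 1210 genes (54.2%) disease moved the cultivars in opposite directions, a pattern that 17% of all tested genes showed. In 463 genes (20.8%) the change was called in Jinlan and not in Jinsha, in 331 (14.8%) it was called in Jinsha and not in Jinlan, and in 218 (9.77%) both moved the same way by unequal amounts. Among all tested genes these 3 patterns made up 23.2%, 19.7% and 21.5%. The remaining 9 genes had no called change in either cultivar. Over all tested genes the disease contrast was called for 61.7% in Jinlan (31.4% higher and 30.3% lower in diseased fruit) and for 58.2% in Jinsha (27.3% higher and 30.9% lower).

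Opposite changes had similar median sizes in both cultivars. The 827 genes that rose in Jinlan and fell in Jinsha had median changes of 0.802 in Jinlan and -0.685 in Jinsha, in log2 units. The 383 genes that fell in Jinlan and rose in Jinsha had medians of -0.699 in Jinlan and 0.748 in Jinsha. Few genes had large opposite changes. Among genes whose diseased and control libraries did not overlap in either cultivar, 1822 (10.6% of those tested) were up in Jinlan and down in Jinsha, and 58 of them changed at least 2-fold both ways. The other way round, 1614 genes (9.43%) were down in Jinlan and up in Jinsha, and 35 changed at least 2-fold both ways. Without overlap in both cultivars, 1957 genes (11.4%) were up in both, and 50 of them changed at least 2-fold in both. Down in both were 2361 genes (13.8%), and 282 of them changed at least 2-fold in both.

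Genes named by class had a mean of at least 5 FPKM in their highest group and no overlap where the change was called. Of the genes with opposite changes that met this rule, Cg9g014340 had the second highest interaction. It stood at 93.1, 120 and 97.4 FPKM in diseased Jinlan and at 7.19, 6.64 and 18.3 FPKM in control Jinlan. In Jinsha it stood at 7.73, 7.24 and 8.36 FPKM in diseased and 16.1, 17.9 and 16.3 FPKM in control fruit. Diseased Jinlan libraries were all above the other 9, and the fall in Jinsha, though small, left no overlap. Its change was 3.29 (SE 0.26) in Jinlan and -1.02 (SE 0.26) in Jinsha on the log2 scale, for an interaction of 4.30 (SE 0.36, adjusted p = 9.2e-07). Cg6g008170 had the highest interaction under the same rule, at 4.45 (SE 0.43, adjusted p = 2.7e-06). The larger part of it came from Jinsha, where the gene changed by -2.78 (SE 0.30) against 1.66 (SE 0.30) in Jinlan. Its control Jinsha libraries at 74.7, 42.5 and 61.8 FPKM were the highest of the 12.

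The lowest interaction of all named genes was that of Cg4g007640, at -9.32 (SE 0.31, adjusted p = 4.13e-10). Diseased Jinlan libraries held 1.38, 1.60 and 3.97 FPKM and control Jinlan libraries 32.3, 34.1 and 28.7 FPKM. Diseased Jinsha libraries held 68.2, 78.7 and 73.4 FPKM, while control Jinsha libraries held 0.278 and 0.392 FPKM and replicate 3 was listed at 0. Each group was clear of the other 3, and the order of the cultivars was turned between control and diseased fruit, with a Jinlan minus Jinsha difference of -4.57 (SE 0.22) in diseased and 4.75 (SE 0.22) in control fruit. Cg8g006130 had the same shape with a smaller part for Jinlan. Its interaction was -7.14 (SE 0.26, adjusted p = 9.13e-10), made of -1.60 (SE 0.18) in Jinlan and 5.54 (SE 0.18) in Jinsha.

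**Figure D2:**
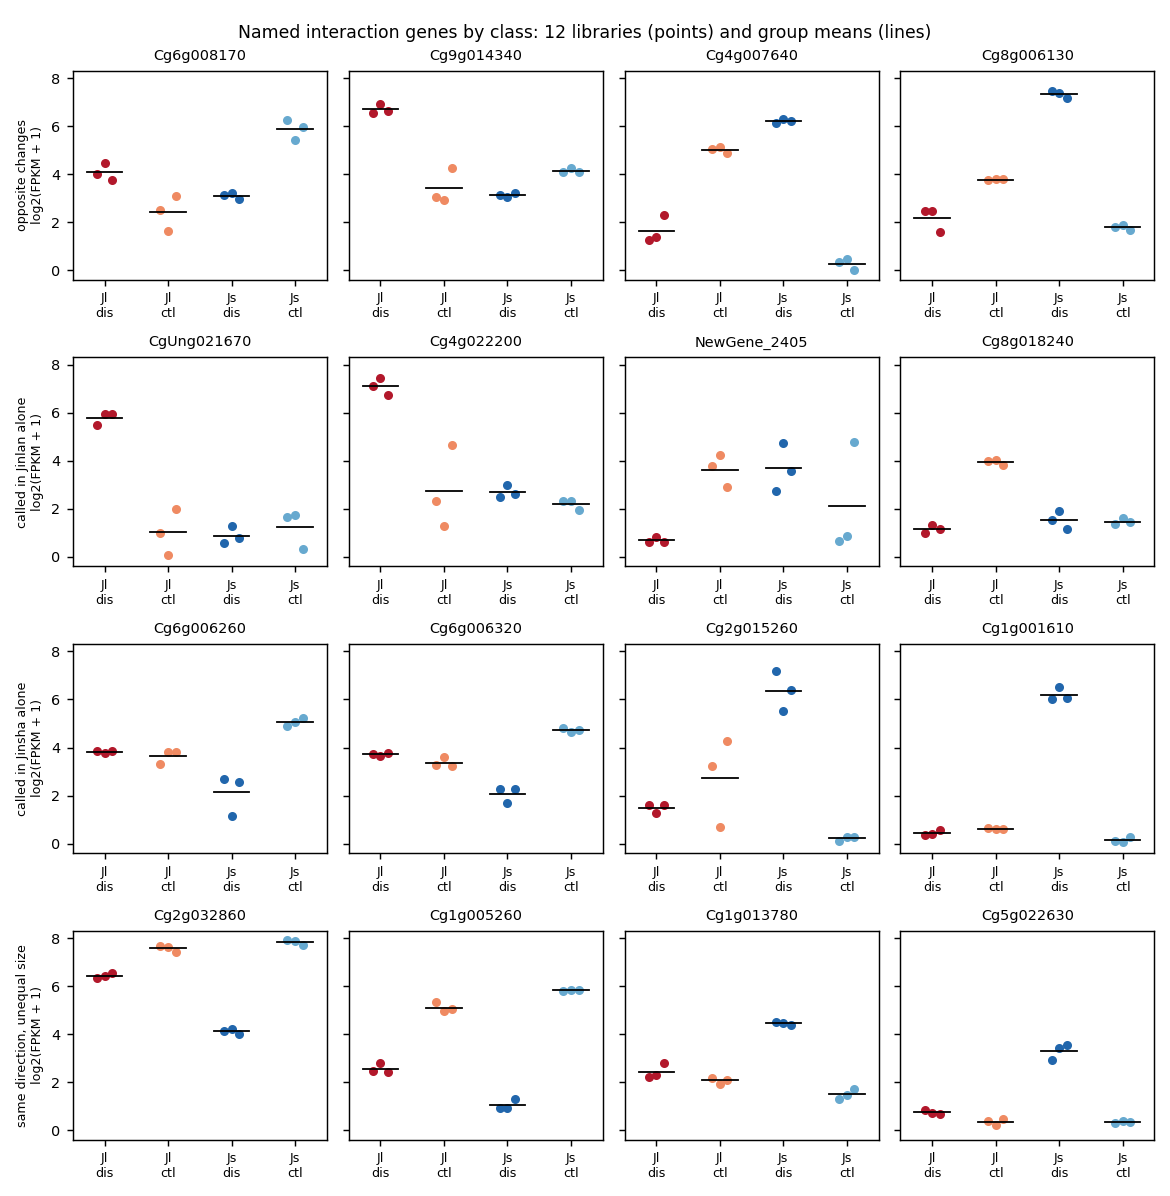
Expression of the 16 genes named by class, as log2(FPKM + 1), with 1 row of panels per class and in each panel, from left to right, diseased Jinlan (Jl dis), control Jinlan (Jl ctl), diseased Jinsha (Js dis) and control Jinsha (Js ctl). Points are libraries and lines group means, and Cg4g007640 shows the crossed order of the cultivars, with 1.38 to 3.97 FPKM in diseased Jinlan and 68.2 to 78.7 FPKM in diseased Jinsha but 28.7 to 34.1 FPKM in control Jinlan and at most 0.392 FPKM in control Jinsha.

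Where the change was called in Jinlan and not in Jinsha, it was mostly a rise. Of these 463 genes, 360 had a higher interaction, with a median Jinlan change of 1.30, and 103 a lower one, with a median Jinlan change of -1.20. Rises also led among all tested genes called in Jinlan and not in Jinsha, of which 2197 rose and 1779 fell. Higher genes led among all 2-fold genes too, with 1517 of 2231. CgUng021670 had 44.3, 60.5 and 60.2 FPKM in diseased Jinlan, against 1.01, 0.0683 and 3.02 FPKM in control Jinlan. In Jinsha it had 0.494, 1.44 and 0.728 FPKM in diseased and 2.14, 2.35 and 0.243 FPKM in control fruit, groups that overlapped. Its interaction was 5.11 (SE 0.62, adjusted p = 1.68e-05). Cg4g022200 had 139, 173 and 107 FPKM in diseased Jinlan and 3.98, 1.42 and 24.0 FPKM in control Jinlan, where replicate 3 was the highest. In Jinsha it had 4.69, 6.99 and 5.18 FPKM in diseased and 3.97, 4.07 and 2.85 FPKM in control fruit, groups that did not overlap. That difference of 0.51 (SE 0.59, adjusted p = 0.474) was not called. The SE came from the scatter pooled over all groups, control Jinlan included, and was 0.59 in Jinlan too. The interaction of Cg4g022200 was 3.85 (SE 0.83, adjusted p = 0.00152).

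Cg8g018240 was the clearer of the 2 named genes that fell in Jinlan. It had 0.993, 1.53 and 1.21 FPKM in diseased Jinlan and 15, 15.2 and 13.1 FPKM in control Jinlan. Diseased Jinsha libraries had 1.92, 2.73 and 1.25 FPKM and control Jinsha libraries 1.59, 2.05 and 1.7 FPKM. Control Jinlan stood alone above the other 9 libraries, and diseased Jinlan was lower than diseased Jinsha by a small called difference of -0.38 (SE 0.16, adjusted p = 0.0455). The interaction was -2.85 (SE 0.22, adjusted p = 4.59e-07). NewGene_2405 had an interaction of -4.52 (SE 1.21, adjusted p = 0.00641) with a wide 95% interval of -7.15 to -1.89. Its control Jinsha libraries held 0.574, 0.817 and 26.5 FPKM, and without replicate 3 of that group the rise in Jinsha was called as well, at 2.92 (adjusted p = 0.000277), as it was with library weights, at 2.11 (adjusted p = 0.0291).

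Where the change was called in Jinsha and not in Jinlan, the interaction was higher for 200 genes, with a median Jinsha change of -1.23, and lower for 131 genes, with a median Jinsha change of 1.28. Among all tested genes called in Jinsha and not in Jinlan, 1653 fell and 1717 rose. Among all 2231 genes at 2-fold, 1517 were higher and 714 lower. Cg1g001610 was close to off outside diseased Jinsha. It had 0.265, 0.328 and 0.466 FPKM in diseased Jinlan and 0.574, 0.530 and 0.502 FPKM in control Jinlan. In Jinsha it had 64.4, 89.6 and 65.6 FPKM in diseased fruit, against 0.0724, 0.0565 and 0.2 FPKM in control fruit. The interaction was -6.23 (SE 0.17, adjusted p = 1.05e-10), whereas no change was called in Jinlan, with a value of -0.19 (SE 0.12, adjusted p = 0.192).

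Cg2g015260 varied more within groups. It had 2.02, 1.43 and 2 FPKM in diseased Jinlan but 8.32, 0.590 and 18.1 FPKM in control Jinlan, where replicate 2 lay below all diseased Jinlan libraries. Diseased Jinsha libraries had 143, 45.2 and 83.1 FPKM and control Jinsha libraries 0.0673, 0.204 and 0.222 FPKM. Its interaction was -7.38 (SE 0.94, adjusted p = 2.65e-05), and without Jinlan control replicate 2 the fall in Jinlan was called too, at -2.25 (adjusted p = 0.000404), which would place the gene among opposite changes.

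The highest interactions of this class came from genes that fell in Jinsha alone. Cg6g006260 had 13.4, 12.5 and 13.4 FPKM in diseased Jinlan and 8.93, 13.0 and 12.9 FPKM in control Jinlan, against 5.51, 1.19 and 4.86 FPKM in diseased Jinsha and 28.7, 32.9 and 36.8 FPKM in control Jinsha. Both Jinlan groups lay between the Jinsha groups, and the interaction was 3.12 (SE 0.43, adjusted p = 5.35e-05). Cg6g006320 had the same order, with means of 12.1 ± 0.488 in diseased Jinlan, 9.45 ± 1.61 in control Jinlan, 3.30 ± 0.927 in diseased Jinsha and 25.6 ± 1.55 FPKM in control Jinsha (SD, n = 3 each). Its interaction was 2.99 (SE 0.20, adjusted p = 1.52e-07), and its Jinlan change of 0.34 (SE 0.14) had an adjusted p of 0.0525, just above the threshold. It was called, and the gene then counted among opposite changes, without Jinlan control replicate 2 (adjusted p = 0.0165) or without diseased Jinsha replicate 1 (0.0462), 2 (0.00739) or 3 (0.0481). The same held with a pseudocount of 5 (0.0227), with the filter set at 5 FPKM (0.0485), after scaling the libraries to the same sum (0.0458) and with library weights (0.0451).

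Same-direction genes were mainly genes that fell in both cultivars. Of the 218, 158 fell in both and 60 rose in both, while of all tested genes called in the same direction in both cultivars 2070 fell and 1605 rose. Cg2g032860, an abundant transcript, had 78.9, 84.2 and 91.9 FPKM in diseased Jinlan and 204, 198 and 173 FPKM in control Jinlan. In Jinsha it had 16.5, 17.4 and 15.3 FPKM in diseased fruit and 241, 237 and 209 FPKM in control fruit. The fall was -1.16 (SE 0.08) in Jinlan and -3.72 (SE 0.08) in Jinsha, and their difference of 2.56 (SE 0.11, adjusted p = 4.69e-09) was more than the fall in Jinlan itself. Cg1g005260 fell by 2.54 (SE 0.13) in Jinlan and by 4.77 (SE 0.13) in Jinsha, with an interaction of 2.23 (SE 0.19, adjusted p = 8.02e-07).

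Of the genes of this class that met the naming rule, Cg1g013780 and Cg5g022630 had the lowest interactions, at -2.58 (SE 0.20, adjusted p = 5.41e-07) and -2.57 (SE 0.20, adjusted p = 4.67e-07). Cg1g013780 averaged 4.50 ± 1.26 FPKM in diseased and 3.22 ± 0.372 FPKM in control Jinlan, against 20.8 ± 1.0 FPKM in diseased and 1.85 ± 0.428 FPKM in control Jinsha (SD, n = 3). Cg5g022630 had 0.777, 0.664 and 0.598 FPKM in diseased Jinlan, 0.308, 0.165 and 0.387 FPKM in control Jinlan, 6.61, 9.87 and 10.7 FPKM in diseased Jinsha and 0.243, 0.317 and 0.258 FPKM in control Jinsha. Both rose strongly in Jinsha, and their Jinlan rises, though free of overlap, were near the threshold. The Jinlan rise of Cg1g013780 was 0.36 (SE 0.14, adjusted p = 0.0425) and was no longer called without Jinlan disease replicate 3, its highest library of that group, at 0.184 (adjusted p = 0.198). Nor was it called without Jinlan control replicate 2 or 3, Jinsha control replicate 2 or any of the 3 diseased Jinsha libraries, with adjusted p of 0.0513 to 0.14. The call was also lost without both Jinlan replicate 3 libraries (adjusted p = 0.224), with no filter on low values (0.0772), after quantile normalization (0.0685) and with library weights (0.0855). That of Cg5g022630 was 0.39 (SE 0.14, adjusted p = 0.0293), a call that was lost without replicate 1 or 2 of either Jinlan group, with adjusted p of 0.0535 to 0.104. It was also lost with a pseudocount of 5, at a change of 0.103 (adjusted p = 0.288), and with the filter set at 5 FPKM (adjusted p = 0.0562).

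The same genes can be read as a change in the difference between the cultivars. Of the 2231 genes, the Jinlan minus Jinsha difference was the larger one in diseased fruit for 1556 (69.7%), compared with 58.4% of all tested genes. In these genes its median absolute size was 1.02 in diseased and 0.54 in control fruit on the log2 scale, while over all tested genes it was 0.336 in diseased and 0.258 in control fruit. A difference between the cultivars was called for 67.3% of all tested genes in diseased and 57.9% in control fruit. The order of the cultivars was turned in 1116 genes (50.0%), meaning that the difference was called in both conditions with opposite signs, and 14.2% of all tested genes were of this kind. A difference was called in diseased fruit alone for 596 genes (26.7%, against 26.3% of all tested genes) and in control fruit alone for 214 (9.59%, against 17%). It was called on the same side in both conditions for 301 genes (13.5%, against 26.7%). These counts moved with the pseudocount, and with 5 in place of 1 there were 636 genes with the order turned, 248 called in diseased fruit alone, 70 in control fruit alone and 157 on the same side. The interaction is the difference between these 2 cultivar contrasts, so the shares describe the genes and add no support.

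**Figure D3:**
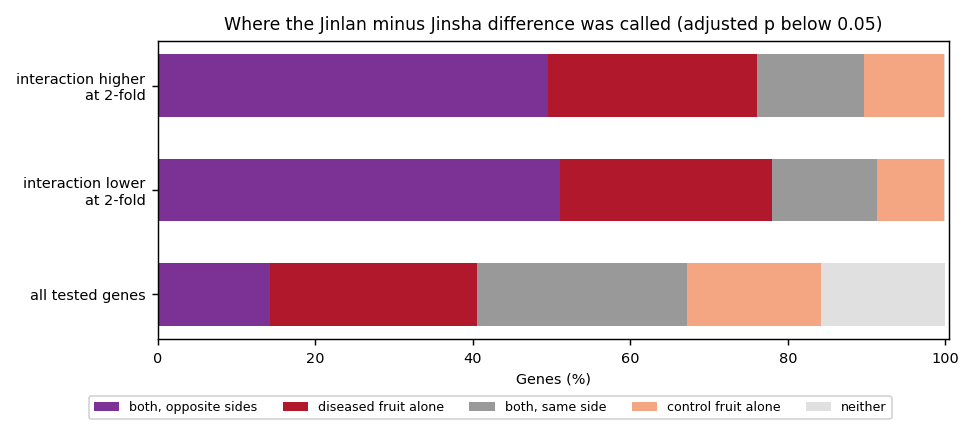
Percentage of genes by the condition in which the Jinlan minus Jinsha difference was called, for the 1517 genes with a higher and the 714 with a lower 2-fold interaction and for all 17120 tested genes. The turned order (both, opposite sides) takes 49.5% of higher and 51.1% of lower genes, against 14.2% of all tested genes.

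The turned order was also counted without a fit. In 887 tested genes (5.18%) Jinlan libraries were all above Jinsha libraries in diseased fruit and all below them in control fruit, and in each cultivar diseased and control libraries were apart as well. The mirror image, with Jinsha on top in diseased fruit, held for 680 genes (3.97%). Of these, 501 and 260 had a called interaction of at least 2-fold, higher for the first and lower for the second pattern. Among all tested genes 8.86% were higher and 4.17% lower at 2-fold. Each pattern fixes the sign of the interaction and favours a large one, so these counts add no support.

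The share of the total FPKM held by the 2-fold interaction genes was taken for each library. By number, higher genes were 8.86% and lower genes 4.17% of those tested. The 1517 genes with a higher interaction took 14.99, 15.28 and 13.76% of the total FPKM of diseased Jinlan libraries and 7.222, 6.946 and 8.283% of that of control Jinlan libraries. In Jinsha they took 6.137, 6.54 and 6.217% in diseased and 10.16, 10.01 and 9.516% in control fruit. No 2 groups of the same cultivar overlapped, and among Jinlan libraries the replicate 3 pair was the closest between conditions. The 714 genes with a lower interaction took 4.248, 4.271 and 4.594% in diseased Jinlan and 7.614, 7.72 and 7.158% in control Jinlan, against 9.778, 9.847 and 9.969% in diseased Jinsha and 5.424, 5.404 and 5.507% in control Jinsha. Both sets were chosen by a 2-fold cut on the contrast that these shares display. The directions therefore follow from the choice, which also favours large shifts, and the shares describe the genes without adding support.

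**Figure D4:**
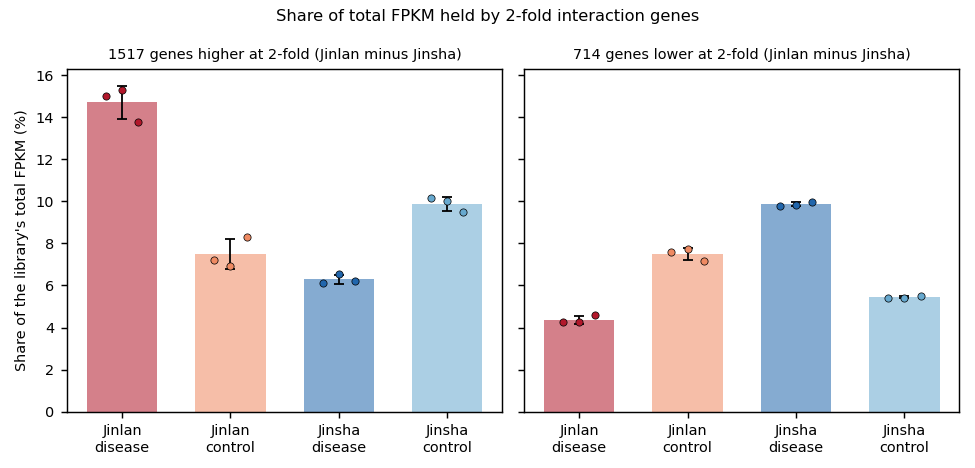
Percentage of each library's total FPKM held by the genes with a higher (left) and lower (right) 2-fold interaction. Bars are group means, error bars the SD of 3 libraries and points the libraries, with the highest mean, 14.7%, for higher genes in diseased Jinlan.

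Called interactions were more frequent among abundant transcripts. Of 645 tested genes averaging below 1 FPKM over the 12 libraries, 47.1% were called, and of 1120 averaging at least 100 FPKM 75.2% were. The median standard error was 0.182 for the low and 0.099 for the abundant genes, and log2(FPKM + 1) compresses the changes of low genes. The share at 2-fold was 13.2% below 1 FPKM, 14.5% from 1 to 5, 12.1% from 5 to 20, 11.6% from 20 to 100 and 19.1% at 100 FPKM and above. Higher genes outnumbered lower ones at every level, by 62 to 23 below 1 FPKM, 456 to 149 from 1 to 5 and 529 to 228 from 5 to 20. They did so by 337 to 233 from 20 to 100 FPKM and by 133 to 81 at 100 FPKM and above.

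An interaction can also come from a single group that stands apart. Genes were therefore counted whose 3 libraries of one group were all at least 2-fold above, or all at least 2-fold below, the other 9, on the FPKM + 1 scale. Diseased Jinlan was above the rest for 141 genes (0.824% of those tested) and below for 50 (0.292%). Control Jinlan was above for 27 genes (0.158%) and below for 1 (0.00584%). Diseased Jinsha was above for 93 (0.543%) and below for 79 (0.461%), and control Jinsha above for 56 (0.327%) and below for 24 (0.14%). Not all of these genes had a called interaction of at least 2-fold. For diseased Jinlan 138 above and 38 below had one, and for control Jinlan 17 above and 0 below. For diseased Jinsha the numbers were 91 and 63, and for control Jinsha 43 and 23. Of all tested genes, 13.0% had a called interaction of at least 2-fold. Choosing genes by a group at least 2-fold apart favours such an interaction, so these numbers describe the genes and add no support. At 4-fold, of the 17120 tested genes, diseased Jinsha was above the rest for 19, diseased Jinlan for 7, control Jinlan for 3 and control Jinsha for 0. At 4-fold diseased Jinsha was below the rest for 6, diseased Jinlan for 4, control Jinsha for 2 and control Jinlan for 0. The single gene with control Jinlan below, Cg9g004420, was named after its values had been seen. It had 26.0, 24.5 and 30.2 FPKM in diseased and 7.06, 6.49 and 9.81 FPKM in control Jinlan, against 133, 166 and 123 FPKM in diseased and 46.2, 35.5 and 32.8 FPKM in control Jinsha. It was thus higher in diseased fruit of both cultivars and higher in Jinsha under both conditions. Its interaction of -0.18 (SE 0.22, adjusted p = 0.509) was not called.

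Without both Jinlan replicate 3 libraries the counts for diseased Jinlan were 225 above and 91 below and those for control Jinlan 43 above and 30 below. Fewer libraries have to stand apart in that count. The Jinsha counts were within 1.5 times of those given, at 95 and 84 for diseased and 57 and 24 for control fruit. Leaving out Jinlan disease replicate 3 alone gave 79 genes with diseased Jinlan below the rest, leaving out Jinlan control replicate 3 alone gave 41 above and 23 below for control Jinlan, and leaving out Jinsha disease replicate 1 gave 123 genes with diseased Jinsha below. The count of 1 for control Jinlan below became 2 without Jinlan control replicate 1, Jinsha disease replicate 1 or Jinsha control replicate 2 and 4 without Jinlan disease replicate 3.

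**Figure D5:**
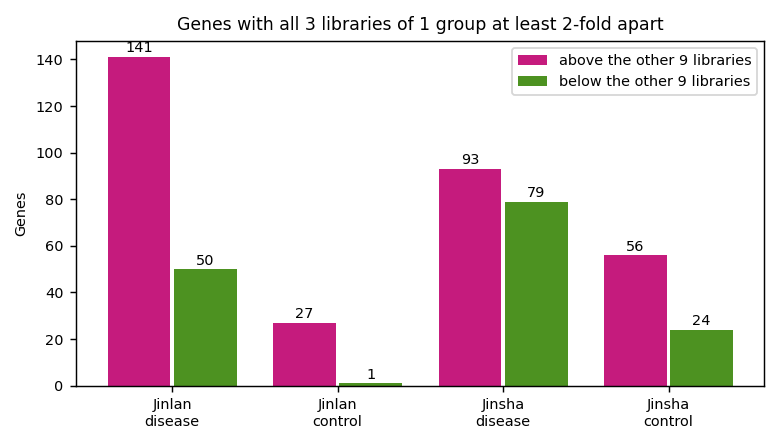
Number of tested genes whose 3 libraries of one group all lay at least 2-fold above (left bars) or below (right bars) the other 9 libraries on the FPKM + 1 scale. Diseased Jinlan has the most genes above the rest (141) and diseased Jinsha the most below (79).

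The genes furthest apart in each group were CgUng021670 and Cg9g014340 for diseased Jinlan, whose lowest library was 11.3 and 4.87 times the highest of the other 9, on the FPKM + 1 scale. For diseased Jinsha they were Cg1g001610, at 41.5 times, and Cg1g003320, at 14.8 times. Cg1g003320 had 111, 93.8 and 102 FPKM in diseased Jinsha and at most 5.39 FPKM in any other library, with an interaction of -6.04 (SE 0.24, adjusted p = 1.7e-09). Its Jinlan change, 0.30 (SE 0.17, adjusted p = 0.143), was called at 0.523 (adjusted p = 0.00404) without Jinlan disease replicate 1. For control Jinlan they were Cg8g023420, at 5.49 times, and Cg9g027520, at 4.45 times. Cg8g023420 had 2.33, 3.12 and 2.47 FPKM in diseased Jinlan and 40.0, 46.2 and 42.8 FPKM in control Jinlan, against 2.14, 1.87 and 1.35 FPKM in diseased Jinsha and 5.48, 6.47 and 5.67 FPKM in control Jinsha. It fell in both cultivars, and the larger fall was from the higher Jinlan level, with an interaction of -2.29 (SE 0.16, adjusted p = 2.08e-07). Cg9g027520 also fell in both cultivars. It averaged 4.80 ± 0.313 FPKM in diseased and 30.4 ± 1.19 FPKM in control Jinlan, against 1.12 ± 0.195 FPKM in diseased and 5.49 ± 0.354 FPKM in control Jinsha (SD, n = 3), and its interaction was -0.83 (SE 0.11, adjusted p = 4.63e-05). With a pseudocount of 5 in place of 1 that interaction was -1.08, and with 0.1 it was -0.44.

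For control Jinsha the genes furthest apart were NewGene_2083, at 3.91 times, and Cg6g003210, at 3.5 times. NewGene_2083 had 5.54, 4.96 and 5.53 FPKM in control Jinsha and at most 0.524 FPKM in the other 9 libraries, with an interaction of 2.25 (SE 0.14, adjusted p = 8.82e-08). At this level the value hangs on the added constant of 1, and it was 3.63 with 0.1 and 0.955 with 5. Cg6g003210 averaged 0.530 ± 0.114 FPKM in diseased and 1.86 ± 0.132 FPKM in control Jinlan, against 1.12 ± 0.0559 FPKM in diseased and 9.96 ± 0.560 FPKM in control Jinsha (SD, n = 3), and its interaction was 1.47 (SE 0.12, adjusted p = 6.01e-07).

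Expression confined to a single group was rare among the 17120 tested genes by the cuts used here. Below 1 FPKM in 9 libraries and at least 5 FPKM in the 3 of one group were 3 genes for diseased Jinsha, 1 for control Jinlan and 0 for the other 2 groups. The 3 were Cg1g001610 and Cg5g022630, described above, and Cg8g020630, which had 7.44, 5.35 and 5.82 FPKM in diseased Jinsha and at most 0.347 FPKM elsewhere. Control Jinlan alone held Cg2g017580, at 7.86, 5.24 and 6.19 FPKM. All of these genes passed the filter only through the libraries of the group in which they were high. The reverse, below 1 FPKM in one group alone and at least 5 FPKM in the other 9 libraries, held for CgUng019290 in diseased Jinlan and Cg3g017920 in control Jinsha. CgUng019290 had 0.727, 0.754 and 0.426 FPKM in diseased Jinlan, against 7.52, 7.82 and 5.82 FPKM in control Jinlan. Cg3g017920 had 17, 23.0 and 21.5 FPKM in diseased Jinsha, against 0.443, 0.260 and 0.220 FPKM in control Jinsha. Cg8g020630, Cg2g017580, CgUng019290 and Cg3g017920 were chosen after their values had been seen.

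Interaction genes were spread over all parts of the identifier set. By the prefix of the identifiers, from Cg1 to Cg9, between 57.4% and 61.0% of the tested genes were called and between 11.3% and 14.8% had an interaction of at least 2-fold. For CgUn identifiers the shares were 52.6% and 14.5%, and for the 1060 tested NewGene identifiers 51.5% and 14.9%. Higher genes outnumbered lower ones under each of these 11 prefixes.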

How the data were processed

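Messenger RNA was sequenced from pomelo fruit in 12 libraries. Extraction used a Qiagen kit and library preparation a SMARTER mRNA kit, per the labels' protocols. The authors deposited a single table of FPKM, 1 column a library, without read counts. Ratios of low values between libraries showed no steps of whole reads (at most 6.43% of ratios fell in one 0.05 log2 bin), so the depth is unknown and no counting interval is given. Aligner, genome build and annotation: not given in the sources used here. Library sums lay between 550055 and 575107 FPKM, and no pair of libraries shared more than 0.00479% of its nonzero values.

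The 17120 genes reaching 1 FPKM in 3 or more libraries were analysed as log2(FPKM + 1). Group means were modelled in limma 3.58.1 (R 4.3.3), moderating variances along their trend with expression, with Benjamini-Hochberg adjustment over all of these genes for each contrast. Fold changes on this scale understate changes of low genes. The fit was tested on simulated data. Figures were drawn with matplotlib 3.10.9. Genes named by class, up to 2 per direction, averaged 5 FPKM or more in their highest group and had the highest or lowest interaction and no overlap of diseased and control libraries in each cultivar whose disease contrast was called. Those named by group had the highest ratio of the group's lowest library to the highest other library. Lists of genes by function were planned but could not be made without names. Members, classes and rules were chosen with earlier results of these data known, and the cultivar-difference, single-group and identifier counts after the data had been seen. Same-numbered libraries of different groups did not deviate together (r of -0.17 to 0.0398 over 18 pairs), so numbers were not treated as pairs. Alternatives were other pseudocounts, filters, scalings, variance models, weights, a replicate block and leaving out libraries.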

Additional observations from a re-analysis of the deposited data

Results flagged for a closer look

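The disease effect differed between the cultivars by the interaction test for 10042 genes, and for all 21 named genes. The named genes were chosen as extremes, 16 of them of the interaction itself, so this adds no support. The log2 differences, Jinlan change minus Jinsha change, among opposite changes were 4.45 for Cg6g008170, 4.30 for Cg9g014340, -9.32 for Cg4g007640 and -7.14 for Cg8g006130. Among changes called in Jinlan alone they were 5.11 for CgUng021670, 3.85 for Cg4g022200, -4.52 for NewGene_2405 and -2.85 for Cg8g018240. Among changes called in Jinsha alone they were 3.12 for Cg6g006260, 2.99 for Cg6g006320, 2.25 for NewGene_2083, -7.38 for Cg2g015260, -6.23 for Cg1g001610 and -6.04 for Cg1g003320. Among changes in the same direction they were 2.56 for Cg2g032860, 2.23 for Cg1g005260, 1.47 for Cg6g003210, -2.58 for Cg1g013780, -2.57 for Cg5g022630, -2.29 for Cg8g023420 and -0.83 for Cg9g027520.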

How the results depend on the processing

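The pseudocount moved the counts at 2-fold. With 5 in place of 1 there were 723 genes higher and 388 lower, with 697 opposite changes, 189 called in Jinlan alone, 116 called in Jinsha alone and 109 in the same direction. With 5 the interactions were -3.97 for Cg1g001610, 1.36 for Cg1g005260, -1.71 for Cg1g013780, -4.89 for Cg2g015260, -1.30 for Cg5g022630, 0.98 for Cg6g003210, -1.67 for Cg8g018240, 3.4 for CgUng021670, -2.34 for NewGene_2405 and 0.955 for NewGene_2083, each over 1.5 times smaller, and 813 genes had the larger cultivar difference in diseased fruit. With 0.1 they were -0.44 for Cg9g027520 and 3.63 for NewGene_2083, and 723 genes were called in Jinlan alone and 565 in Jinsha alone. With 0.1 the cultivar difference was called in diseased fruit alone for 902 genes and in control fruit alone for 435. The other filters, scalings, variance models and weights, and leaving out each library in turn or both Jinlan replicate 3 libraries, left the 7 counts within 1.5 times, and without 1 library the genes called ranged from 9215 to 9755. Quantile normalization turned the balance at any fold, to 4677 higher and 5453 lower against 5385 and 4657, and moved the median interaction of all tested genes to -0.0474 from 0.0285, and the cause was not tested. With a replicate block 9674 genes were called, and the block changed the call of 0 of the 21 named genes. All 21 kept the direction and the call of their interaction under every alternative in which they were tested. Cg1g001610 and Cg5g022630 missed the filter, and so were not tested, when any diseased Jinsha library was left out. NewGene_2083 was not tested when any control Jinsha library was left out or with the filter set at 5 FPKM. Of the 2231 genes at 2-fold, 1949 to 2229 were shared by each alternative other than the pseudocount of 5 and the stricter filter, which shared 1110 and 1761. Unknown depth limits what can be said of genes near 1 FPKM.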

Other observations

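Interaction genes were followed in identifier number by a gene of the same kind more often than tested genes at large, though in fewer than 1 in 5 pairs and without a test of that difference. Identifiers with prefixes Cg1 to Cg9 advance in steps of 10, and 10549 pairs of tested genes were consecutive. After a gene with a higher 2-fold interaction the next gene was also higher in 167 of 898 pairs (18.6%), compared with 8.04% over all pairs, and it was lower in 2.78%. After a gene with a lower interaction the next was also lower in 50 of 443 pairs (11.3%), compared with 4.29% over all pairs, and it was higher in 6.77%. No coordinates were used, so consecutive numbers are not shown to be adjacent genes. Whether near-identical copies shared reads was not tested. These numbers are descriptions made after the data had been seen.

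The longest run, from Cg2g035470 to Cg2g035520, held 6 consecutive genes with interactions of 1.08 to 1.55. A run of 4 from Cg2g015250 to Cg2g015280 held much larger values, with interactions of -7.38 to -3.98. Its second gene is Cg2g015260, described above. Cg2g015250 had 1.5, 1.1 and 1.45 FPKM in diseased Jinlan and 5.87, 0.426 and 3.42 FPKM in control Jinlan, against 22.0, 29.6 and 21.8 FPKM in diseased Jinsha and 0.187, 0.228 and 0.314 FPKM in control Jinsha. Cg2g015280 had 1.58, 1.37 and 2.27 FPKM in diseased Jinlan and 9.06, 8.30 and 9.78 FPKM in control Jinlan, against 62.8, 40.3 and 53.0 FPKM in diseased Jinsha and 5.10, 4.87 and 5.41 FPKM in control Jinsha. In all 4 genes the 3 diseased Jinsha libraries were above the other 9. The first pair of the run was near 0 in control Jinsha, and Jinlan control replicate 2 was the lowest library of its group in both.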
